A study of Mus musculus with 14 samples.

Results

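The levels of 10 genes of the kidney vasculature were followed in kidney RNA from 14 mice. The genes were Pecam1, Nos3, Kdr, Flt1, Emcn, Ehd3, Plvap, Tek, Angpt1, and Angpt2, and each was taken from the deposited tables by its gene symbol. All 10 were found in every mouse, among 21878 genes in the tables, and all 10 passed the filter on low values that left 14912 genes for testing. The mice formed 4 groups. WT diabetic mice (n = 4) and Cfb-/- diabetic mice (n = 4) were male C57BL/6J animals given a high-fat diet with 60% of calories from fat and then streptozotocin (STZ), a toxin of the pancreatic β cell, at 60 mg/kg on 5 days. WT control mice (n = 3) and Cfb-/- control mice (n = 3) received chow with 10% of calories from fat and the 50 mM citrate buffer in which STZ was dissolved. Per the methods of the study, the mice were 8 weeks old at the start, the diet preceded STZ by 4 weeks, and the kidneys were taken 21 weeks after STZ, whereas 34 weeks is the time in the labels, with no starting point named. The labels call the deletion a knockdown and describe one treatment for control and diabetic animals alike, so the groups were read from the sample names. Cfb encodes complement factor B, the protease of the alternative complement pathway, and the deletion was carried in every cell of the body. The labels give the tissue as kidney, and RNA from a whole tissue cannot tell apart fewer cells of a type and less RNA per cell.

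Renal endothelium lines vascular beds that differ in structure. Glomerular capillaries are fenestrated and filter plasma, peritubular capillaries take up what the tubules reabsorb, and the vasa recta supply the medulla. Endothelial cells respond to vascular endothelial growth factor (VEGF), made in the kidney mainly by podocytes and tubules, through the receptors encoded by Kdr and Flt1. Angiopoietin-1 from perivascular cells activates the receptor Tie2, encoded by Tek, and keeps vessels quiet, whereas angiopoietin-2 competes with it and loosens the vessel wall. Loss of nitric oxide from endothelial nitric oxide synthase and a shift toward angiopoietin-2 are known features of diabetic vascular disease.

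The deposited values were read as FPKM, fragments scaled to the length of the transcript and to the size of the library. They are not whole numbers, their total varies between mice, and their smallest steps are finer for longer transcripts. The values summed to between 330246 and 488196 per mouse, the largest sum being that of WT control mouse 2. The number of reads is unknown, and the depth relative to the first Cfb-/- diabetic mouse, set to 1, was 0.837 to 1. The targeted gene followed the labels. Cfb was at 56.7 to 131 FPKM in the 7 WT mice and at 1.13 to 2.22 FPKM in the 7 Cfb-/- mice. The composition of the libraries differed with diabetes, since the 50 most abundant genes took 29.7% to 35.6% of the FPKM sum in control mice and 20.6% to 23.7% in diabetic mice. Markers of urothelium, the lining of the renal pelvis, also differed between mice of a group. The 7 urothelial genes summed to 0.721, 36.9, 51.1, and 18 FPKM in the WT diabetic mice and to 10.0, 0.636, and 10.3 FPKM in the Cfb-/- control mice, but only to 0.279 to 0.777 FPKM in WT control mice and 1.3 to 3.58 FPKM in Cfb-/- diabetic mice. The results were also computed without WT control mouse 2 and with the urothelial markers as a covariate, an alternative chosen after seeing the data. Among WT mice, the urothelial level was high only in diabetic mice 2, 3, and 4, so the covariate cannot be cleanly separated from diabetes there.

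Among the 10 genes, Plvap had the highest level in every group, and Emcn followed without overlap between the mice of the 2 genes. FPKM is adjusted for transcript length, which allows this comparison between genes. A trend with length still remained and differed between the WT control mice, as given below. In WT control mice, Plvap was at 65.8 ± 9.25 FPKM (SD, n = 3) and Emcn at 38.5 ± 4.70 FPKM. Ehd3, Pecam1, Kdr, and Tek came next, at mean levels of 10.0, 9.61, 9.35, and 6.2 FPKM, and no neighbours in this order were separated beyond the range of their mice. Flt1 stood at 4.06 FPKM, and Angpt1, Nos3, and Angpt2 closed the order at 2.48, 1.61, and 1.07 FPKM. Of these neighbours, Angpt1 and Nos3 did not overlap, whereas Nos3 and Angpt2 did. In WT diabetic mice, the bottom of the order was changed, with Angpt2 at 3.18 FPKM, Nos3 at 2.95 FPKM, and Angpt1 at 2.25 FPKM, and all of these neighbours overlapped. The lowest value of any of the 10 genes in any mouse was 0.616 FPKM, for Angpt2 in a WT control mouse.

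**Figure D1:**
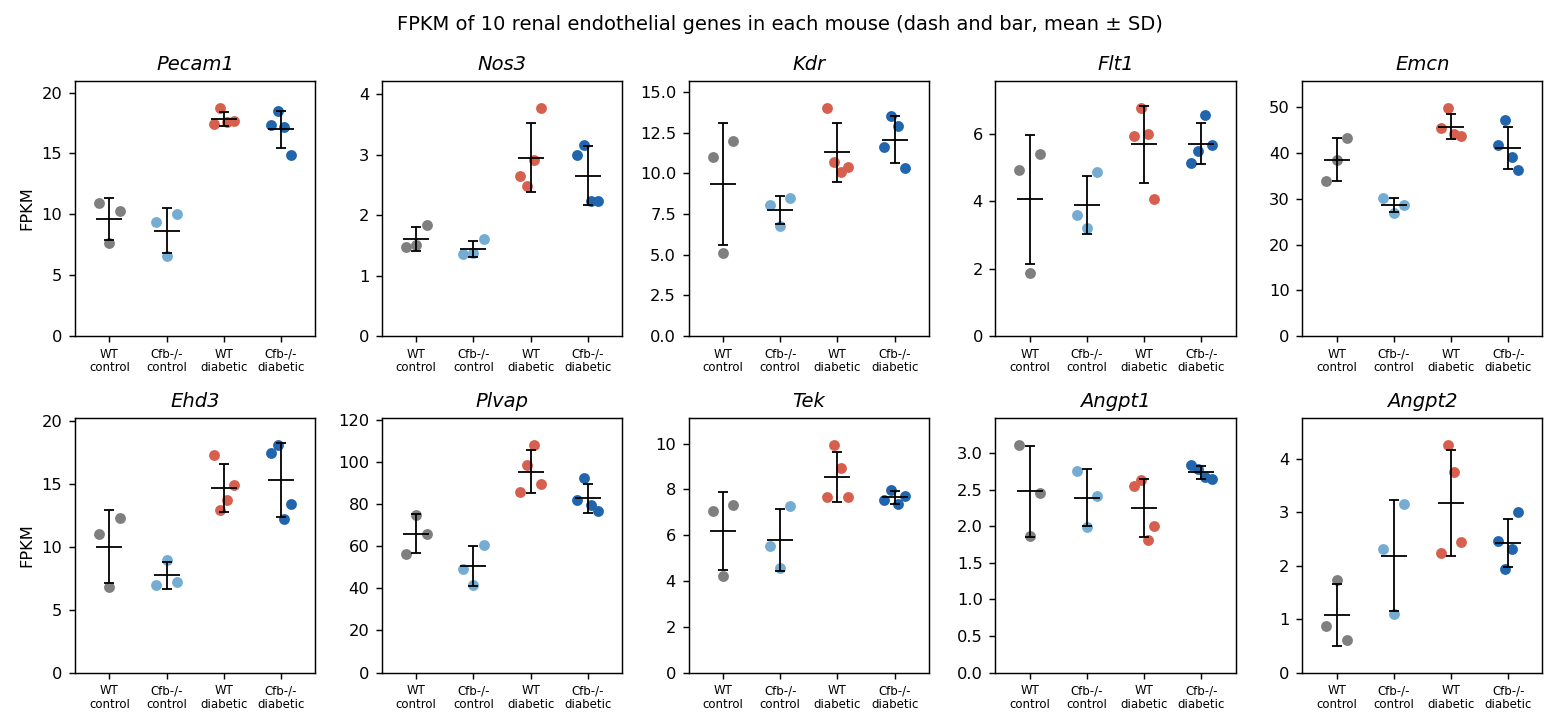
FPKM of each of the 10 genes (y axis, from 0) in each mouse (points) of the 4 groups (x axis), with the group mean as a dash and the SD as a bar. Pecam1 and Nos3 were higher in all diabetic mice than in all control mice of the same genotype, whereas Angpt1 stayed between 1.81 and 3.11 FPKM throughout.

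The first comparison was of diabetic with control mice of the same genotype, tested with limma on log2(FPKM + 0.1) over all 14912 genes. These mice differed in diet and STZ at once, so the word diabetes stands here for diet, STZ, and high blood glucose together. Their parts cannot be told apart. In WT mice, 6 of the 10 genes rose at a Benjamini-Hochberg adjusted p under 0.05 (Pecam1, Nos3, Ehd3, Plvap, Tek, and Angpt2) and 0 fell. Over all genes tested, 46.1% were called in this comparison, 36.2% as higher and 9.97% as lower. In Cfb-/- mice, 5 of the 10 rose (Pecam1, Nos3, Emcn, Ehd3, and Plvap) and 0 fell, where 33.8% of all genes were called, 27.4% as higher and 6.4% as lower. The median log2 fold change of the 10 genes was 0.56 in WT mice and 0.59 in Cfb-/- mice, compared with 0.29 and 0.22 over all genes. The study counted a gene as changed where the fold change passed 2 or 0.5 and the P-value without adjustment was under 0.05. The study took its P-values from DESeq2, whereas here they came from limma, so the counts are not those of the study. By these criteria, Angpt2 was called in WT mice as the only one of the 10, where 17.5% of all genes were called, 15.6% as higher and 1.82% as lower, and 0 of the 10 were called in Cfb-/- mice, where 14.9% of all genes were, 13.3% as higher and 1.66% as lower. In WT mice, 7 of the 10 genes had no overlap between diabetic and control mice, as did 45.3% of all genes. In Cfb-/- mice, 8 did, as did 42.2% of all genes.

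Pecam1 and Nos3 mark endothelium of all beds, and both rose with diabetes in both genotypes. Pecam1 encodes the adhesion molecule CD31 of endothelial junctions, which leukocytes and platelets carry as well (chromosome 11, 106654213 to 106715281, GRCm38.p6). It was at 10.9, 7.67, and 10.3 FPKM in WT control mice and at 17.4, 18.7, 17.6, and 17.7 FPKM in WT diabetic mice. In Cfb-/- control mice it was at 9.40, 6.57, and 10.0 FPKM, and in Cfb-/- diabetic mice at 17.3, 18.5, 17.2, and 14.9 FPKM. The 8 diabetic mice all lay above the 6 control mice, and the WT diabetic mice were close together, with a coefficient of variation of 3.27%. The rise was 1.87-fold in WT mice (log2 0.90 ± 0.15 SE, limma adjusted p = 0.000284) and 1.97-fold in Cfb-/- mice (log2 0.98 ± 0.15, limma adjusted p = 0.000177). Each of 8 leukocyte and macrophage genes, among them Lyz2 and Cd68, was also called higher in WT mice and 7 of them in Cfb-/- mice. Their summed level was 60.6 to 77.0 FPKM in WT control mice, rising to between 233 and 339 FPKM under diabetes, and their part in the rise of Pecam1 was not tested.

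Nos3, endothelial nitric oxide synthase (chromosome 5, 24364816 to 24384474), was at 1.48, 1.51, and 1.83 FPKM in WT control mice and at 2.65, 2.48, 2.91, and 3.77 FPKM in WT diabetic mice. Among Cfb-/- mice it was at 1.35, 1.38, and 1.60 FPKM without and at 2.99, 3.16, 2.23, and 2.24 FPKM with diabetes. The groups did not overlap in either genotype. The change was 1.77-fold in both, with log2 0.83 ± 0.18 in WT mice (limma adjusted p = 0.00189) and log2 0.82 ± 0.18 in Cfb-/- mice (limma adjusted p = 0.00237). Under quantile normalization, neither call was kept, with log2 changes of 0.29 and 0.32. Among 7 genes of the nitric oxide route found in the tables, Nos3 included, 4 rose and 1 fell in WT mice, and 3 rose and 1 fell in Cfb-/- mice. The highest of them was Arg2, an arginase that uses the substrate of Nos3, which rose by 3.18 and 1.99 on the log2 scale (limma adjusted p = 0.000235 and 0.0073). Ddah1, which breaks down an inhibitor of nitric oxide synthases, fell by 0.54 and 0.61 on the log2 scale (limma adjusted p = 0.00335 and 0.00174).

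Kdr and Flt1 encode the VEGF receptors, and neither was called in either genotype. Kdr (VEGFR2, the main signalling receptor, chromosome 5, 75932827 to 75979072) was at 11, 5.07, and 12 FPKM in WT control mice and at 14, 10.7, 10.1, and 10.4 FPKM in WT diabetic mice. Its Cfb-/- values were 8.03, 6.79, and 8.47 FPKM without and 11.6, 13.5, 12.9, and 10.3 FPKM with diabetes. The WT groups overlapped, since all but the lowest WT control mouse, mouse 2, lay within the range of the WT diabetic mice, whereas the Cfb-/- groups did not. The log2 change was 0.35 ± 0.23 in WT mice (95% confidence interval −0.15 to 0.85, limma adjusted p = 0.225) and 0.63 ± 0.23 in Cfb-/- mice (0.13 to 1.13, limma adjusted p = 0.0502). With only the 2 Cfb-/- groups in the fit, Kdr passed the threshold, with an adjusted p of 0.00601. The WT value of Kdr was −0.04 without WT control mouse 2 (adjusted p = 0.879) and 0.61 with the urothelial covariate (adjusted p = 0.165).

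Flt1 (VEGFR1, which binds VEGF more tightly and also exists as a soluble decoy, chromosome 5, 147561604 to 147726438) was at 4.94, 1.86, and 5.40 FPKM in WT control mice and at 5.96, 6.77, 6.00, and 4.08 FPKM in WT diabetic mice. Its values in Cfb-/- mice were 3.59, 3.21, and 4.88 FPKM without and 5.13, 5.5, 6.56, and 5.67 FPKM with diabetes. As for Kdr, the groups overlapped in WT mice only, and the lowest value was that of WT control mouse 2. The log2 change was 0.59 ± 0.29 in WT mice (−0.03 to 1.22, limma adjusted p = 0.108) and 0.56 ± 0.29 in Cfb-/- mice (−0.07 to 1.18, limma adjusted p = 0.158). With only the 2 Cfb-/- groups in the fit the adjusted p was 0.0265, and the WT value ran from 0.12 without WT control mouse 2 (adjusted p = 0.691) to 0.86 without WT control mouse 3 (adjusted p = 0.0385), where it was called. The deposited values are per gene and do not separate the soluble from the membrane form. The ratio of Flt1 to Kdr did not pass an exact permutation test in either genotype (log2 difference 0.24, p = 0.371, and −0.07, p = 0.657, two-sided).

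Emcn, Ehd3, and Plvap mark capillary beds, and the 3 rose together in Cfb-/- mice, while Ehd3 and Plvap rose in WT mice. Ehd3 encodes a protein of endocytic recycling enriched in glomerular endothelium (chromosome 17, 73804841 to 73832093). It was at 11, 6.77, and 12.3 FPKM in WT control mice and at 17.3, 12.9, 13.7, and 14.9 FPKM in WT diabetic mice, compared with 6.97, 8.99, and 7.23 FPKM and 17.5, 18.1, 12.2, and 13.4 FPKM in Cfb-/- mice. Diabetic mice lay above control mice in both genotypes, in WT mice by a gap of less than 1 FPKM. The rise was 1.5-fold in WT mice (log2 0.59 ± 0.20, limma adjusted p = 0.025) and 1.95-fold in Cfb-/- mice (log2 0.97 ± 0.20, limma adjusted p = 0.00173). In WT mice, the call was lost without WT control mouse 2 (log2 0.33, adjusted p = 0.162), without WT diabetic mouse 1 (log2 0.51, adjusted p = 0.0695), under median-ratio scaling (log2 0.31, adjusted p = 0.151), under quantile normalization (log2 0.41, adjusted p = 0.101), and with the trend with transcript length removed (log2 0.27, adjusted p = 0.204). Removing that trend also rescales each mouse, so it is not a check on length alone. With the urothelial covariate the WT value was 0.95 (adjusted p = 0.014).

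Plvap, the protein of the diaphragms across fenestrae of peritubular capillaries (chromosome 8, 71497753 to 71511806), was at 56.5, 75.0, and 65.9 FPKM in WT control mice and at 85.5, 98.7, 108, and 89.5 FPKM in WT diabetic mice. Cfb-/- mice had 49.0, 41.7, and 60.6 FPKM without and 82.1, 92.5, 79.5, and 76.9 FPKM with diabetes. There was no overlap in either genotype. The rise was 1.45-fold in WT mice (log2 0.54 ± 0.13, limma adjusted p = 0.00525) and 1.65-fold in Cfb-/- mice (log2 0.73 ± 0.13, limma adjusted p = 0.000873). Under median-ratio scaling, the call in WT mice was lost (log2 0.26, adjusted p = 0.189), as it was with the urothelial markers as a covariate (log2 0.29, adjusted p = 0.206). The ratio of Plvap to Pecam1 in Cfb-/- mice was 5.21, 6.35, and 6.05 without and 4.75, 5.01, 4.63, and 5.15 with diabetes, a log2 difference of −0.25 without overlap. Its two-sided exact permutation p was 0.0286, the smallest that 4 mice against 3 can give, and its adjusted p was 0.305 over the 16 ratio tests run. In WT mice the groups overlapped, with a log2 difference of −0.36 (exact permutation p = 0.171). It was −0.11 without WT control mouse 2, whose ratio of 9.77 was the highest of the 14 mice.

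Emcn encodes endomucin, a sialomucin on the surface of capillary and venous endothelium (chromosome 3, 137341062 to 137431069). It was at 33.8, 38.6, and 43.2 FPKM in WT control mice and at 45.5, 49.8, 44.1, and 43.8 FPKM in WT diabetic mice. The highest control and the lowest diabetic mouse differed by less than 1 FPKM, and the log2 change was 0.26 ± 0.11 (limma adjusted p = 0.0624), past the threshold only without WT control mouse 3 (log2 0.34, adjusted p = 0.0329) and with quantile normalization. In Cfb-/- mice, Emcn was at 30.2, 27.0, and 28.7 FPKM without and at 41.8, 47.3, 39.2, and 36.4 FPKM with diabetes, and it rose 1.43-fold (log2 0.52 ± 0.11, limma adjusted p = 0.00188). Median-ratio scaling took this call away (log2 0.27, adjusted p = 0.0805).

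The promoters of 5 of the 10 genes were in the RefSeq table of GRCm38.p6, as windows of 300 bases that end 50 bases after a start site. They were searched on both strands for GGAAGT, a core to which ETS factors of the endothelium such as Erg and Fli1 bind. The core was found in the windows of Kdr, Flt1, and Ehd3 and not in those of Emcn and Tek, and 23.8% of all 32851 windows hold it. The 3 windows that hold the core are shown, in lower case with the core in capitals.
Kdr (chr5:75978406-75978705, minus strand): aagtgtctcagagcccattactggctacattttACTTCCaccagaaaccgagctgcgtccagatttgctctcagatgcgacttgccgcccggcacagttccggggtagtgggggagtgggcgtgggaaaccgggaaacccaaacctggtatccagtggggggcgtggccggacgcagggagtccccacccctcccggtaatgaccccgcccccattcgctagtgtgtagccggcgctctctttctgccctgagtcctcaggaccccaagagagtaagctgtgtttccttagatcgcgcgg
Flt1 (chr5:147725962-147726261, minus strand): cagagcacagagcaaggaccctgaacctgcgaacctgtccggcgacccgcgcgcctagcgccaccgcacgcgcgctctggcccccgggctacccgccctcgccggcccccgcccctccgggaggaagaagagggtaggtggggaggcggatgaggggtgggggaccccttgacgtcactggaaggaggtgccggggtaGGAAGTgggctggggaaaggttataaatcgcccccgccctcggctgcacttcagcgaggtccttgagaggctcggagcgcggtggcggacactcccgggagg
Ehd3 (chr17:73804591-73804890, plus strand): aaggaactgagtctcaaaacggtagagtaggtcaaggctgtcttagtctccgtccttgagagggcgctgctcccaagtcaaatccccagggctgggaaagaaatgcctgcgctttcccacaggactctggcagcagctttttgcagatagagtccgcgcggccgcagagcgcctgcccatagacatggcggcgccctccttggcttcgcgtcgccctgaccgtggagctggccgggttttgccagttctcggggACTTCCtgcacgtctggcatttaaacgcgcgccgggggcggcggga
Counted from the start site, the core begins at position −52 on the gene's strand in Flt1, whereas in Kdr and Ehd3 it lies on the opposite strand and is printed as ACTTCC, from positions −217 and 5. The windows of Kdr and Flt1 lie inside the gene bounds given above, which run to 75979072 and 147726438. Their positions are thus counted from a start site within those bounds. The hypoxia response core ACGTG was found only in the window of Ehd3, and is held by 19.6% of all windows, the GATA motif AGATAA only in that of Tek (11.2% of all windows), and the forkhead motif TGTTTAC in 0 of the 5 (3.65% of all windows). Erg and Fli1 themselves rose with diabetes, Erg by 0.83 in WT and 0.85 in Cfb-/- mice and Fli1 by 0.92 and 1.19 on the log2 scale (limma adjusted p of 0.00154 or less). The motif matches describe these letters and are not binding data.

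Tek, Angpt1, and Angpt2 form the angiopoietin axis, and they moved differently. Tek (Tie2, chromosome 4, 94739086 to 94874976) was at 7.07, 4.23, and 7.30 FPKM in WT control mice and at 7.66, 9.94, 8.93, and 7.65 FPKM in WT diabetic mice. For Cfb-/- mice, the values were 5.52, 4.58, and 7.28 FPKM without and 7.52, 7.99, 7.38, and 7.71 FPKM with diabetes. Groups did not overlap in either genotype, but by a gap of under 1 FPKM. The log2 change was 0.49 ± 0.19 in WT mice (limma adjusted p = 0.0443) and 0.42 ± 0.19 in Cfb-/- mice (limma adjusted p = 0.098). The call in WT mice was lost without WT control mouse 2 (log2 0.24, adjusted p = 0.27), when any 1 of WT diabetic mice 1, 2, and 3 was left out (adjusted p 0.0516 to 0.108), under both other scalings, with the trend with transcript length removed (log2 0.10, adjusted p = 0.612), and with the urothelial covariate (log2 0.27, adjusted p = 0.436).

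Angpt1, the activating ligand (chromosome 15, 42424667 to 42676977), was at 3.11, 1.86, and 2.46 FPKM in WT control mice and at 2.55, 2.63, 1.81, and 2.01 FPKM in WT diabetic mice. Cfb-/- mice had 2.76, 1.99, and 2.42 FPKM without and 2.84, 2.78, 2.67, and 2.65 FPKM with diabetes. Diabetic and control mice overlapped in both genotypes, and the log2 changes of −0.12 ± 0.18 and 0.20 ± 0.18 were not called (limma adjusted p = 0.606 and 0.422). Relative to the median of all genes the log2 change of Angpt1 in WT mice was −0.41, and it was called lower in WT mice under median-ratio scaling (log2 −0.39, adjusted p = 0.049), under quantile normalization (log2 −0.64, adjusted p = 0.00501), and with the trend with transcript length removed (log2 −0.48, adjusted p = 0.0112). Each of these settings also rescales the mice, with an all-gene median in WT mice of 0.03, −0.05, and −0.02, compared with 0.29 on the deposited scale.

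Angpt2, the competing ligand (chromosome 8, 18690263 to 18741562), was at 0.876, 1.73, and 0.616 FPKM in WT control mice and at 2.24, 4.26, 3.76, and 2.44 FPKM in WT diabetic mice. All WT diabetic mice lay above all WT control mice. The rise was 2.91-fold (log2 1.54 ± 0.36, limma adjusted p = 0.00334), the largest of the 10 genes and above 93.6% of all genes tested. Angpt2 in Cfb-/- mice was at 2.31, 1.09, and 3.16 FPKM without and at 2.47, 1.93, 2.31, and 3.01 FPKM with diabetes. These groups overlapped, and the log2 change was 0.25 ± 0.36 (−0.51 to 1.01, limma adjusted p = 0.62).

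The levels of Angpt2 moved with the urothelial markers. The WT diabetic mice with the highest summed urothelial level, at 36.9 and 51.1 FPKM, had the highest Angpt2, and the Cfb-/- control mouse with the lowest sum of its group, at 0.636 FPKM, had the lowest Angpt2 of its group. That mouse was also the lowest of its group in 7 of the other 9 genes. WT diabetic mouse 1, with a urothelial sum of 0.721 FPKM, within the range of WT control mice, had Angpt2 at 2.24 FPKM, above the highest WT control mouse at 1.73 FPKM. The mean log2 urothelial level was −3.02 to −2.36 in WT control mice, −2.60 in WT diabetic mouse 1, and 1.16 to 2.46 in the other WT diabetic mice. An adjusted value in WT mice therefore leans on that mouse and on a slope shared by all groups. With the mean urothelial level as a covariate, the log2 change of Angpt2 was 0.67 ± 0.38 in WT mice (limma adjusted p = 0.204) and 0.51 ± 0.29 in Cfb-/- mice (limma adjusted p = 0.196). In that fit, 3 of the 10 genes were called in WT mice (Pecam1, Nos3, and Ehd3), and the same 5 as before in Cfb-/- mice. Of all genes, 24.7% and 31% were called in that fit, 3677 in WT mice in place of 6879.

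The ratio of Angpt2 to Angpt1 within a mouse does not depend on a scale factor for the whole library. Angpt2 reached 0.282, 0.927, and 0.250 of Angpt1 in WT control mice and 0.877, 1.62, 2.08, and 1.21 of Angpt1 in WT diabetic mice. The highest control mouse lay above the lowest diabetic mouse. The mean log2 ratio rose from −1.22 ± 0.97 (SD) to 0.44 ± 0.52, a difference of 1.66 (two-sided exact permutation p = 0.0571, adjusted p = 0.305 over 16 ratio tests). The ratio in Cfb-/- mice was 0.836, 0.549, and 1.31 without and 0.870, 0.695, 0.867, and 1.14 with diabetes, a log2 difference of 0.05 (exact permutation p = 0.83). Between diabetic mice, it was lower in Cfb-/- mice by a log2 value of −0.62 (exact permutation p = 0.0571, adjusted p = 0.305). None of the 16 ratio tests passed the adjustment. The smallest p that the exact test allows was 0.0286, or 0.1 between control groups, so a ratio alone could not have passed. This outcome therefore does not show that the ratios were unchanged.

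**Figure D2:**
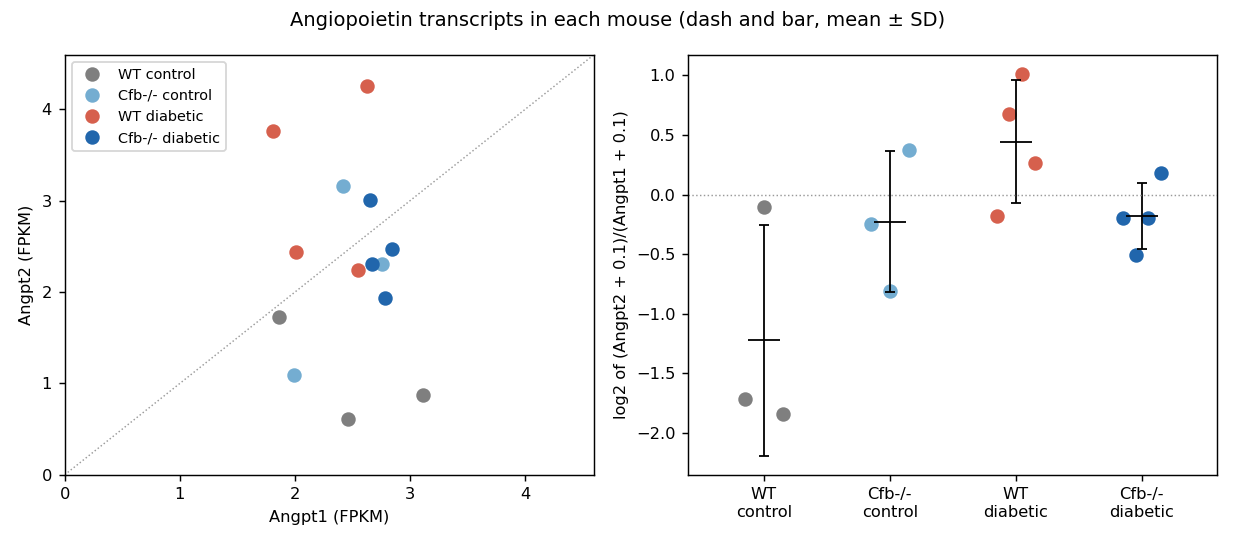
Left, Angpt2 against Angpt1 in FPKM, with a dotted line where the 2 are equal. Right, the log2 ratio of Angpt2 to Angpt1 (each plus 0.1) in each mouse of the 4 groups, with mean and SD. In 3 of 4 WT diabetic mice Angpt2 exceeded Angpt1, compared with 0 of 3 WT control mice, and the ratios of these groups overlapped (0.877 in WT diabetic mouse 1, 0.927 in WT control mouse 2). Angpt2 also exceeded Angpt1 in Cfb-/- control mouse 3 and Cfb-/- diabetic mouse 4, with ratios of 1.31 and 1.14.

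How far the 10 genes rose depended on the scale. On the deposited scale the median gene was higher with diabetes, by a log2 value of 0.29 in WT and 0.22 in Cfb-/- mice, and 78.4% and 81% of the called genes were higher. After median-ratio scaling, which sets the median gene near 0, these shares were 50.3% and 56.8%, and after quantile normalization 44.2% and 49.1%. Pecam1 rose in both genotypes on all 3 scales, from 0.62 to 0.90 in WT mice and from 0.74 to 0.98 in Cfb-/- mice, and Ehd3 and Plvap rose on all 3 in Cfb-/- mice. In WT mice, Nos3 and Angpt2 were called on the deposited scale and with median-ratio scaling, and Plvap on the deposited scale and with quantile normalization. Emcn in WT mice turned from a log2 change of 0.26 to −0.03 with median-ratio scaling and was called at 0.30 with quantile normalization. In all, 4 of the 10 genes were called in each genotype under either scaling, counting Angpt1 as lower in WT mice. Of all genes, median-ratio scaling called 45.2% in WT and 32.6% in Cfb-/- mice, and quantile normalization 35.9% and 29.3%, so the share of the 10 was near that of all genes.

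**Figure D3:**
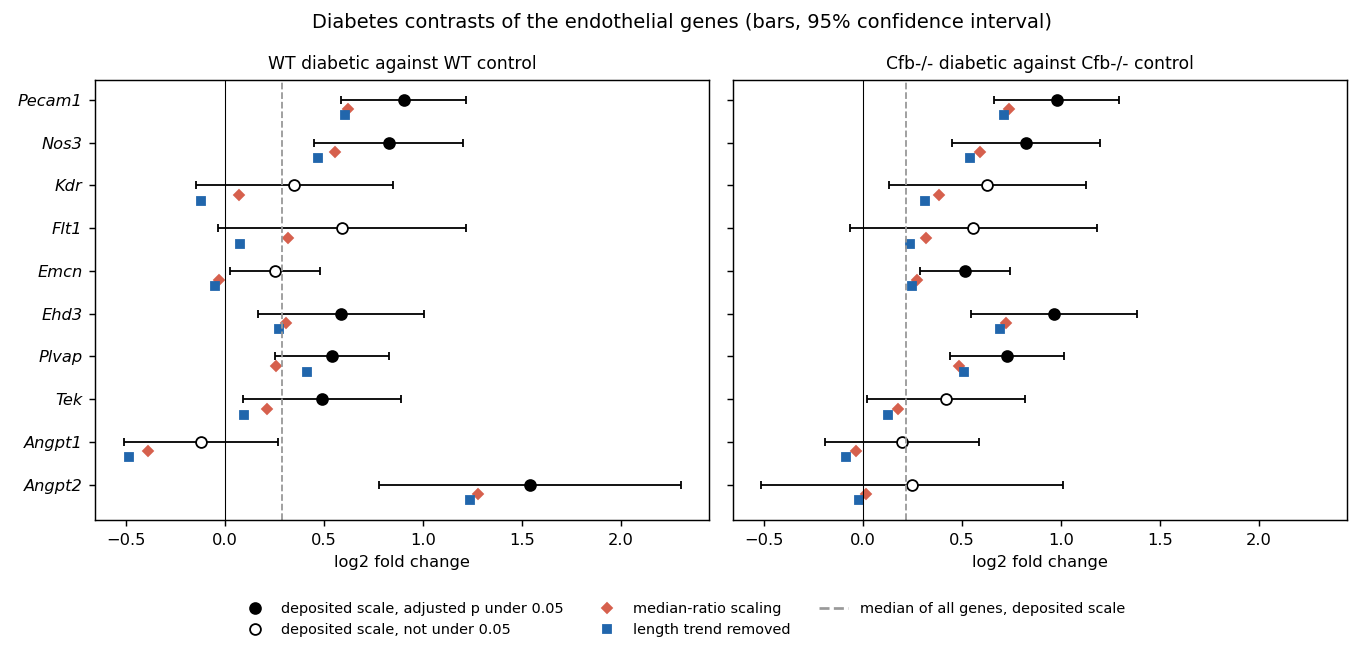
Log2 fold change of each gene with diabetes (x axis) in WT mice (left) and Cfb-/- mice (right), on the deposited scale with its 95% confidence interval (circles, filled where the adjusted p was under 0.05), after median-ratio scaling (diamonds), and with the trend with transcript length removed (squares). The dashed line is the median of all genes on the deposited scale, at 0.29 and 0.22. The line applies to the circles, since the median of all genes was 0.03 and −0.01 for the diamonds and −0.02 and −0.04 for the squares. Pecam1 lay to the right of the line on all 3 scales in both panels.

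WT control mouse 2 stood apart among the 10 genes. It had the lowest value of its group in 6 of them (Pecam1, Kdr, Flt1, Ehd3, Tek, and Angpt1), and its median deviation from the group mean was −0.33 on the log2 scale. Over all genes, this mouse was low for long transcripts. The genes were put in 4 equal classes of transcript length, the shortest up to 2127 bases and the longest from 4708 bases. In this mouse, the median deviation of the longest class minus that of the shortest was −0.48. This difference was 0.41 in WT control mouse 1 and −0.23 to 0.17 in the other 12 mice. Kdr and Flt1, with transcripts of 5924 and 6895 bases, are in the longest class and were the genes that deviated most downward in WT control mouse 2. Plvap, with 1987 bases, is in the shortest class and was highest in that mouse, as was Angpt2, with 3560 bases and in neither of these classes, which deviated upward by more (1.73 FPKM, compared with 0.876 and 0.616 FPKM). Without it, 4 of the 10 genes were called in WT mice (Pecam1, Nos3, Plvap, and Angpt2), as were 32.1% of all genes, and Angpt2 was at a log2 change of 1.92. With each mouse's trend with transcript length removed, an alternative chosen after seeing the data, the same 4 rose in WT mice and Angpt1 fell, and Pecam1, Nos3, Ehd3, and Plvap rose in Cfb-/- mice. In that fit, of the 14407 genes with a length, 43.6% and 36.8% were called.

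**Figure D4:**
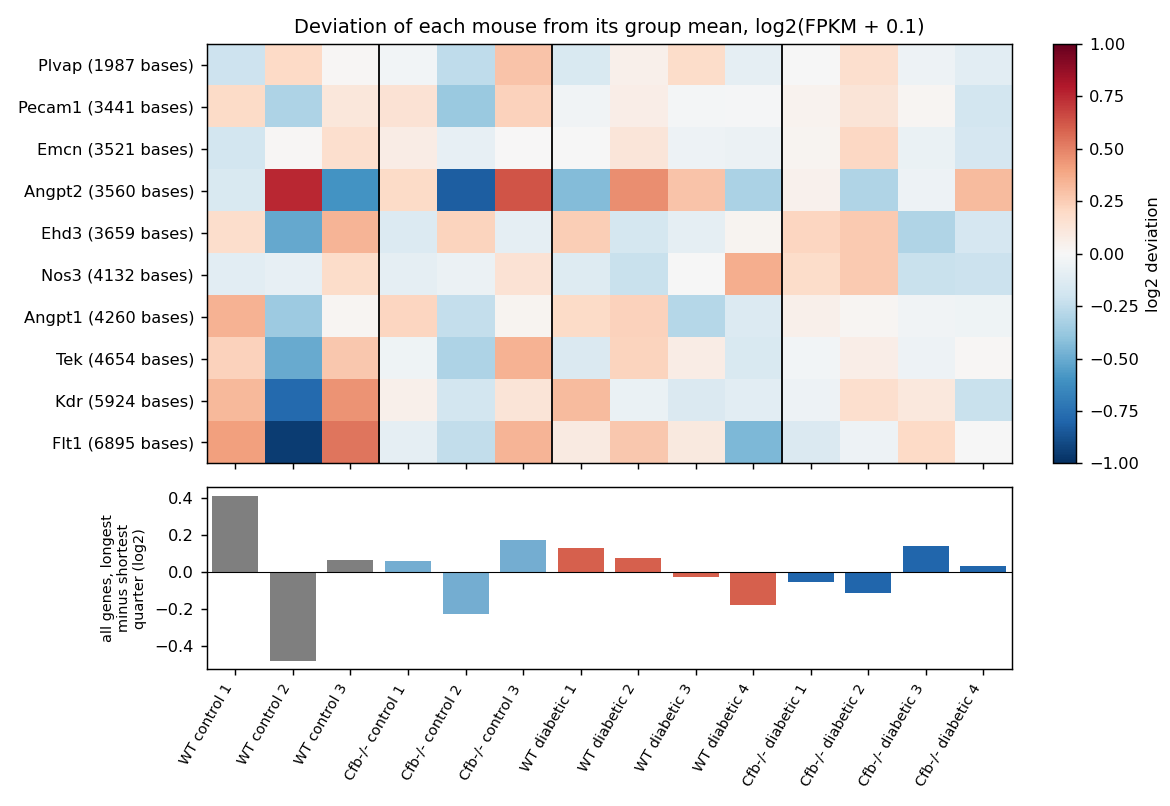
Top, deviation of each mouse (columns, grouped) from its group mean in log2(FPKM + 0.1) for the 10 genes, ordered by the length of the longest annotated transcript. Bottom, the median of the same deviation over the genes of a class, for the longest minus the shortest of 4 classes of transcripts. WT control mouse 2 is blue for the longest transcripts and has the lowest bar, at −0.48.

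Deletion of Cfb was compared next, between mice in the same metabolic state, and 0 of the 10 genes were called by limma in control mice or in diabetic mice. Only 1 of all 14912 genes, Cfb itself, was called in each, or 0.00671%, as lower. By the criteria of the study, 0 of the 10 genes were called in either comparison. Of all genes, these criteria called 1.17% in control mice (0.946% higher and 0.221% lower) and 0.476% in diabetic mice (0.0738% higher and 0.402% lower). At an unadjusted p under 0.05 there were 3 of the 10 genes in control mice, where 2614 genes passed, and 0 in diabetic mice, where 448 did. In control mice, these were Emcn, Plvap, and Angpt2. Emcn was lower in Cfb-/- control mice, at 27.0 to 30.2 FPKM, than in WT control mice, at 33.8 to 43.2 FPKM (log2 −0.42 ± 0.11, unadjusted p = 0.00225, limma adjusted p = 0.236), without overlap, as for 13.8% of all genes. Its two-sided exact permutation p was 0.1, the smallest that 3 mice against 3 allow. Plvap was at log2 −0.39 ± 0.14 (limma adjusted p = 0.249), with overlapping groups. Without WT control mouse 1, both passed the threshold (Emcn log2 −0.51, adjusted p = 0.0284, and Plvap log2 −0.49, adjusted p = 0.0491), and 1724 genes were called in place of 1. Angpt2 was at log2 0.96 ± 0.38 (limma adjusted p = 0.253), with overlapping groups, and at 0.45 ± 0.33 with the urothelial covariate.

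In diabetic mice, deletion of Cfb went with differences of −0.34 to 0.28 on the log2 scale among the 10 genes, with a limma adjusted p of 1 for each. For the genes that rose with diabetes in both genotypes, the 95% confidence intervals of the difference between Cfb-/- and WT diabetic mice were −0.37 to 0.21 for Pecam1, −0.49 to 0.20 for Nos3, −0.34 to 0.43 for Ehd3, and −0.47 to 0.06 for Plvap. Angpt1 was the only one of the 10 without overlap, as for 2.75% of all genes. Cfb-/- diabetic mice had 2.65 to 2.84 FPKM, compared with 1.81 to 2.63 FPKM in their WT counterparts (log2 0.28 ± 0.17, unadjusted limma p = 0.112, two-sided exact permutation p = 0.0286, the smallest that 4 mice against 4 allow). Limma takes 1 estimate of spread over all 4 groups, and Angpt1 varied less in Cfb-/- diabetic mice, with a coefficient of variation of 3.30%, than in the other groups, at 16.1% to 25.1%. Angpt2 was at log2 −0.34 ± 0.33 (−1.04 to 0.37), and with the urothelial covariate the difference turned to 0.29 ± 0.32.

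The question whether the response to diabetes depended on Cfb was addressed by the interaction of genotype and diabetes. Limma called 0 of the 10 genes and 0% of all genes. By the criteria of the study, Angpt2 was called, as were 1.77% of all genes (0.463% higher and 1.31% lower). At an unadjusted p under 0.05 there was 1 of the 10, Angpt2, and 861 of all genes. The rise of Angpt2 was smaller in Cfb-/- mice by a log2 value of −1.30 ± 0.50 (unadjusted p = 0.0219, limma adjusted p = 0.779). Exact permutation of genotype labels inside each metabolic state, over 1400 arrangements and chosen after seeing the data, gave a two-sided p of 0.0771. The difference arose on both sides, since Cfb-/- control mice had a higher mean level than WT control mice (2.19 and 1.07 FPKM) and Cfb-/- diabetic mice a lower one than WT diabetic mice (2.43 and 3.18 FPKM). With the urothelial covariate, it was −0.16 ± 0.52, in a fit that cannot cleanly separate urothelial level from diabetes in WT mice. For the other 9 genes, the interaction ranged from −0.07 to 0.38. The capillary markers Emcn, Ehd3, and Plvap had differences of 0.26, 0.38, and 0.19, with confidence intervals that held 0.

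Many further endothelial genes were called higher. Of 18 other genes of endothelium in general, 13 rose in WT mice, 17 rose in Cfb-/- mice, and 0 fell. The median log2 changes were 0.76 and 0.75. Cdh5, the cadherin of endothelial junctions, rose by 1.10 and 0.98 (limma adjusted p = 0.000107 and 0.000282). Tie1, the partner receptor of Tie2, rose by 0.39 and 0.50 (limma adjusted p = 0.0221 and 0.00709). Cd93 and Mmrn2, a receptor and its matrix ligand, were among the most changed, with 1.58 and 1.29 in WT mice and 1.34 and 1.10 in Cfb-/- mice. Vwf, the platelet-binding factor stored in endothelium, rose by 2.18 in WT mice (limma adjusted p = 0.00098) and was at 0.66 in Cfb-/- mice (limma adjusted p = 0.247), and like Angpt2 it was highest in WT diabetic mice 2 and 3, at 2.67 and 1.66 FPKM.

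Of 19 further genes of the VEGF and angiopoietin pathways, Tie1 included, 13 rose and 1 fell in WT mice, and 11 rose and 0 fell in Cfb-/- mice, with medians of 0.64 and 0.65. The main ligand of Kdr was not among them. Vegfa ranged over 25.1 to 59.4 FPKM among WT control mice and over 22.5 to 42.9 FPKM among WT diabetic mice, and its log2 changes of −0.18 and −0.23 were not called (limma adjusted p = 0.624 and 0.563). Vegfb was at −0.35 and 0.20 and Vegfc at 0.29 and 0.39, likewise not called. Vegfd, a ligand of lymphatic and blood vessel receptors, rose by 1.24 and 1.16 (limma adjusted p = 0.000598 and 0.00117), and the coreceptor Nrp2 by 1.14 and 1.32 (limma adjusted p = 0.000278 and 0.000109). Hif1a, the hypoxia-regulated factor upstream of Vegfa, rose by 1.26 in WT mice (limma adjusted p = 0.000545) and was at 0.57 in Cfb-/- mice (limma adjusted p = 0.063). Angptl4, a lipase inhibitor of the wider family, rose by 1.17 and 1.96 (limma adjusted p = 0.00328 and 8.9e-05). The 1 that fell in WT mice was Esm1, a secreted proteoglycan of VEGF-stimulated tip cells, at −1.05 (limma adjusted p = 0.000813), compared with −0.40 in Cfb-/- mice (limma adjusted p = 0.134).

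Genes of endothelial activation showed the largest changes among the endothelial lists, with 7 of 8 called higher in each genotype and medians of 1.45 and 1.44. Vcam1, an adhesion molecule that injured tubules express as well, rose by 2.29 and 2.68 (limma adjusted p = 1.87e-05 and 6.47e-06), and Icam1 by 1.21 and 1.43 (limma adjusted p = 2.36e-05 and 7.81e-06). In the glomerular list, which shares Ehd3, Emcn, and Kdr with the 10 genes, 3 of 8 rose in WT mice and 4 of 8 in Cfb-/- mice. Plat, tissue plasminogen activator, was the highest of them at 1.18 and 1.46 (limma adjusted p = 0.000603 and 0.000138), and Tbx3, a transcription factor, rose in WT mice by 0.96 (limma adjusted p = 0.00778) and was at 0.15 in Cfb-/- mice (limma adjusted p = 0.684). Of 8 arterial genes, 4 and 2 rose, among them Bmx (0.53 and 0.73) in both genotypes. Gja5 was at 0.99 and 0.65 (limma adjusted p = 0.0119 and 0.0946) and Fbln5 at 0.29 and 1.05 (limma adjusted p = 0.253 and 0.00109), and the differences between genotypes were not called. As shares, the glomerular count in WT mice and the arterial count in Cfb-/- mice were near or below those of all genes called higher, 36.2% and 27.4%. Of 7 genes of the vasa recta and veins, Plvap included, 5 rose and 1 fell in WT mice and 2 rose in Cfb-/- mice, among them Ephb4, a venous receptor, at 0.45 and 0.61 (limma adjusted p = 0.00937 and 0.00165). Of 6 lymphatic genes, 5 and 4 rose, with Lyve1 at 2.26 and 1.24 (limma adjusted p = 0.000103 and 0.008) from levels under 0.1 FPKM in all control mice, Mmrn1 at 1.46 and 0.96 (limma adjusted p = 0.00105 and 0.0171), and Flt4, the receptor of Vegfc and Vegfd, at 0.87 and 0.88 (limma adjusted p = 0.00148 and 0.00175). In the 2 comparisons of genotype and in the interaction, 0 genes of any of these lists were called by limma, with 0 to 5 genes of a list at an unadjusted p under 0.05.

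**Figure D5:**
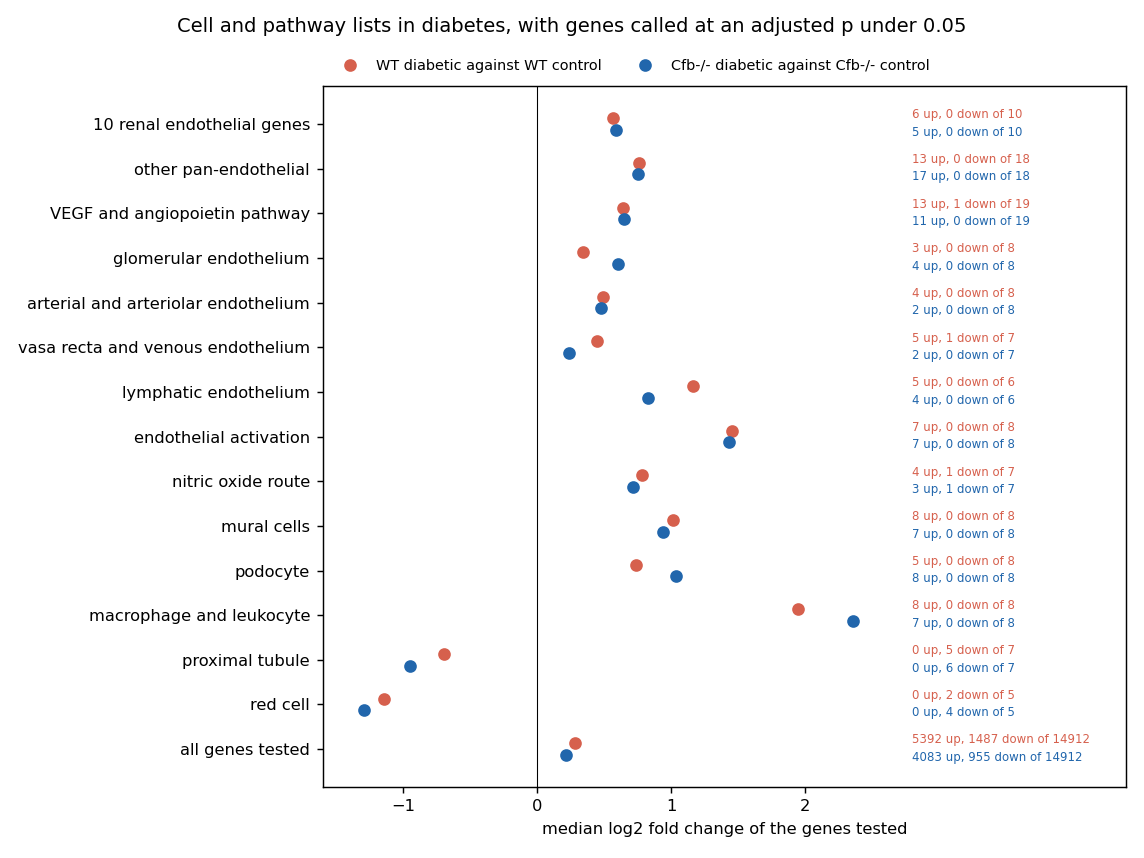
Median log2 fold change with diabetes (x axis) of the 10 genes, of further vascular lists, of other cell types, and of all genes tested, in WT mice (red) and Cfb-/- mice (blue), with the number of genes called in each direction. The 10 genes lay at 0.56 and 0.59, between all genes tested at 0.29 and 0.22 and the mural and leukocyte lists.

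Markers of other cells moved in the same comparisons. All 8 mural cell genes rose in WT mice and 7 of 8 in Cfb-/- mice (medians 1.02 and 0.94), with Rgs5, a pericyte gene, at 1.33 and 0.84, Notch3 at 1.47 and 1.21, and Tagln at 1.16 and 1.03. Podocyte genes rose in 5 of 8 and 8 of 8, with Plce1 at 1.16 and 1.02 and Ptpro at 1.1 and 1.20. Leukocyte and macrophage genes had medians of 1.95 and 2.36, led by Lyz2 (2.76 and 2.73) and Cd68 (2.26 and 2.41), and their summed level in Cfb-/- mice was 50.5 to 81.9 FPKM without and 200 to 367 FPKM with diabetes. Of 3 platelet genes tested, Pf4 rose (1.69 and 2.34), Itga2b fell in WT mice (−0.65), and Ppbp was at −0.66 in Cfb-/- mice without a call. The 5 platelet genes listed summed to under 10 FPKM in every mouse.

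Proximal tubule genes fell in 5 of 7 and 6 of 7, with Miox at −2.13 and −1.71 and Slc34a1 at −1.34 and −1.29, and their summed level was 5140 to 7540 FPKM in control mice and 1900 to 3080 FPKM in diabetic mice. Genes of injured tubule rose in all 5 in both genotypes (medians 4.78 and 4.14), with Krt20 at 4.78 and 4.14 and Havcr1 at 5.53 and 4.37. Genes of thick limb and distal tubule rose in 2 of 5 and 1 of 5, namely Aqp2 (1.14) and Slc12a1 (1.35) in WT mice and Calb1 (0.81) in Cfb-/- mice. Red cell genes fell in 2 of 5 (Hba-a1 and Hba-a2) and 4 of 5 (Hba-a1 at −1.38 and Hbb-bs at −1.30 among them). Genes of the adipocyte list rose in 6 of 6 in WT mice (Cfd at 6.39 and Fabp4 at 1.35) and in 1 of 6 in Cfb-/- mice (Fabp4 at 0.73), where the other 5 were lower without a call. Fabp4 did not follow Cfd, as it was at 32.1 to 43.9 FPKM in Cfb-/- diabetic mice, where Cfd was at 0 FPKM. Its rise in Cfb-/- mice is therefore not read as one of adipocytes. Urothelial genes rose in 7 of 7 in WT mice (Krt5 at 3.6 and Upk1a at 3.49) and in 0 of 7 in Cfb-/- mice, where Upk2 was at −2.46 and Upk3a at −1.63. The part of these cells in the results for the 10 genes was not tested, other than by the urothelial covariate.

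Within the groups, the 10 genes did not vary as a single unit. Over the 45 pairs, the Pearson correlation of deviations from the group mean in log2(FPKM + 0.1) over 14 mice had a median of 0.26 and ranged from −0.79 to 0.89, with 12 pairs below 0. Flt1 and Tek were the pair most alike, at 0.89, followed by Kdr and Flt1 at 0.84 and Pecam1 and Tek at 0.82. Angpt2 went against Ehd3, at −0.79, and against Kdr, at −0.53, and with Plvap, at 0.67. These values are a description, and the mice share the differences in transcript length and urothelial level given above. Among 11386 other genes with a mean of at least 1 FPKM, the deviations most like those of Pecam1 were of Vgll4 (0.96), Tlr3 (0.95), and Pex26 (0.95), and most like those of Nos3 were of Pcp4l1 (0.98), Nt5c3b (0.91), and Idua (0.91). For Kdr they were of Lrch3, Rictor, and AW549877 (each 0.96), and for Flt1 of Spen, Nfx1, and Rapgef1 (0.96 to 0.97). Emcn was most like Gpn1 (0.89), Parp9 (0.86), and Tmco4 (0.84), Ehd3 like Loxl2 (0.98), P3h1 (0.97), and Fam65a (0.95), and Plvap like Gmds (0.92), Rufy1 (0.89), and Sprr1a (0.89). Tek was most like Setbp1 (0.97), Ehmt1 (0.96), and Tmtc1 (0.95), Angpt1 like Tsn (0.95), Usp14 (0.95), and Appl1 (0.94), and Angpt2 like Fst, Scel (each 0.95), and Slc38a10 (0.94). None of these genes is in the endothelial lists used here.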

How the data were processed

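Kidney RNA of 14 mice was sequenced as stranded mRNA libraries from both ends. The submitters' processing notes name Trimmomatic, HISAT2, Cufflinks, HTSeq and DESeq and the build GRCm38.p6, with no versions. The authors deposited values per gene and mouse that were read as FPKM from the values themselves. Depth in reads is unknown, so no counting error is given. Limma p-values set a difference against a spread between mice estimated over all 4 groups, each of 3 or 4 mice. Permutation p-values use only the mice of the groups compared.

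The 14912 of 21878 genes that reached 0.1 FPKM in 3 mice or more were tested as log2(FPKM + 0.1). The test was that of limma 3.58.1 (R 4.3.3) with a trend of variance on mean level, a mean for each of the 4 groups, no covariates and no further scaling. Fold changes are on that scale and understate changes of genes near 0.1 FPKM. P-values were adjusted over all genes tested (Benjamini-Hochberg). Exact permutation tests over mice were two-sided. For simulated data, normal noise was drawn independently for each gene, with 100 genes raised by a log2 change of 1 and 100 by 2. In the comparison of diabetes in WT mice, the fit recovered 67 and 96 of them and called 8 of 14712 unchanged genes. In the real comparison 46.1% of genes were called, and trends with transcript length and urothelial level were present, so these rates need not hold there. Transcript lengths were matched by symbol for 96.6% of the genes tested. Coordinates, names and promoters are from RefSeq tables of GRCm38.p6, in which all 10 genes were found and promoters of 5.

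The 10 genes, the further lists and the alternatives were chosen with earlier results of these data known. The genes named are the 10, the 2 genes of each list with the lowest unadjusted p in each diabetes comparison, Vegfa, Vegfb, Vegfc, Cdh5, Tie1, Vwf and Cfb, and per gene the 3 genes most like it. Erg, Vegfd, and Esm1 were named outside this rule, after their values were seen. Each group's mice carry a replicate number, but these numbers were not taken as pairs, since the correlations of deviations between mice of the same number were −0.388 to 0.243. Figures were drawn with matplotlib 3.10.9 in Python 3.11.15.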

Additional observations from a re-analysis of the deposited data

Results flagged for a closer look

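Of 28 groups of 4 mice examined, 1 had a mouse farther from the others than Dixon's 95% critical value allows. Kdr in WT diabetic mouse 1 was at 14 FPKM, with the other 3 mice at 10.1 to 10.7 FPKM, and its gap took 0.85 of the range. Chance flags about 1 in 20 groups.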

How the results depend on the processing

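With single mice left out, Pecam1, Nos3, Plvap, and Angpt2 in WT mice and the 5 genes called in Cfb-/- mice kept their calls. The number of the 10 genes called ranged over 4 to 8 for diabetes in WT mice, 5 to 6 in Cfb-/- mice, and 0 to 2 for deletion in control mice, and was 0 for deletion in diabetic mice and for the interaction. The number of all genes called ranged over 4775 to 7503, 3716 to 5064, 1 to 1724, 1 to 6, and 0 to 4 in the same order. The number of the 10 at the criteria of the study ranged over 1 to 2 for diabetes in WT mice, 0 to 2 in Cfb-/- mice, and 0 to 1 for deletion in control mice and for the interaction. All genes were counted at these criteria only in the fit of the Results, with shares of 17.5%, 14.9%, 1.17%, and 1.77% in the same order. With a mouse left out these shares are not known, so the ranges are not read as a result about the 10. Kdr was called in Cfb-/- mice without Cfb-/- diabetic mouse 4 (log2 0.70, adjusted p = 0.0463) and Tek without Cfb-/- control mouse 3 (log2 0.59, adjusted p = 0.0342).

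Log2 values that changed sign with a mouse left out ranged as follows. For diabetes they were Angpt1 −0.302 to 0.052 and Kdr −0.036 to 0.579 in WT mice, and Angpt2 −0.162 to 0.563 in Cfb-/- mice. For deletion in control mice they were Angpt1 −0.216 to 0.138, Flt1 −0.42 to 0.326, Kdr −0.564 to 0.05, Pecam1 −0.307 to 0.031, and Tek −0.33 to 0.073, and for deletion in diabetic mice Ehd3 −0.042 to 0.147 and Flt1 −0.129 to 0.11. For the interaction they were Flt1 −0.304 to 0.441, Nos3 −0.098 to 0.115, Pecam1 −0.111 to 0.227, and Tek −0.223 to 0.18. Among ratios they were Angpt2 to Angpt1 −0.242 to 0.349, Ehd3 to Pecam1 −0.172 to 0.284, and Flt1 to Kdr −0.142 to 0.034 for diabetes in Cfb-/- mice, Flt1 to Kdr −0.191 to 0.035 for deletion in diabetic mice, and Plvap to Pecam1 −0.438 to 0.015 for deletion in control mice. The ratio of Plvap to Pecam1 for diabetes in Cfb-/- mice ranged over −0.335 to −0.196 and missed the threshold, since fewer mice allow no smaller p, and also did so at −0.192 with a pseudocount of 1.

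Further sign changes came from other settings. Median-ratio scaling gave −0.027 for Emcn in WT and −0.035 for Angpt1 in Cfb-/- diabetes, −0.031 for Flt1 in both deletion comparisons, −0.008 for Ehd3 in diabetic deletion, and 0.031 for Nos3 and 0.0 for Flt1 in the interaction. Quantile normalization gave −0.252 for Angpt1 and −0.237 for Angpt2 in Cfb-/- diabetes, −0.09 and −0.039 for Flt1 in control and diabetic deletion, and 0.032 for Nos3 and 0.051 for Flt1 in the interaction. Removing the length trend gave −0.122 for Kdr and −0.049 for Emcn in WT diabetes, −0.084 for Angpt1 and −0.022 for Angpt2 in Cfb-/- diabetes, −0.244 and −0.083 for Flt1 in control and diabetic deletion, −0.013 for Ehd3 in diabetic deletion, and 0.069 for Nos3, 0.161 for Flt1, and 0.034 for Tek in the interaction. The urothelial covariate gave 0.013 for Angpt1 in control deletion, 0.014 for Pecam1, −0.088 for Kdr, −0.214 for Ehd3, 0.006 for Tek, and 0.29 for Angpt2 in diabetic deletion, and 0.037 for Nos3, −0.065 for Kdr, −0.093 for Ehd3, and 0.212 for Tek in the interaction. None of these values passed the threshold, and the cause was not tested.

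With the urothelial covariate, 3 of the 10 and 3677 of all genes were called for diabetes in WT mice, where that covariate went closely with diabetes. For deletion in control mice, 3 genes were called with no filter, 4 with a pseudocount of 0.01, and 3 with the groups compared alone, and in diabetic mice 2, 2, and 3. A pseudocount of 0.01 called 2 genes in the interaction and put 1 of the 10 at the criteria of the study for deletion in control mice. A pseudocount of 1 left 0 of the 10 at these criteria in the interaction, and quantile normalization left 0 for diabetes in WT mice. With the replicate number as a block, Tek was not called in WT mice (log2 0.51, adjusted p = 0.0532), Kdr was called in Cfb-/- mice (log2 0.68, adjusted p = 0.0406), and 1 of the 10 met the criteria of the study there. The block changed no other call of the 10. The share of all genes at the criteria of the study was not computed under the block, the other pseudocounts, or quantile normalization. The numbers do not pair the mice, since correlations of their deviations ran from −0.388 to 0.243. Tek in WT mice was also lost with no filter (adjusted p = 0.0566) and with the groups compared alone (adjusted p = 0.0749). Under settings other than leaving out a mouse, 442 values of single genes kept direction and call, 18 lost and 7 gained a call, and 33 changed sign.

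The data limit what can be read from them. The files give no read counts, so a count model could not be run. All diabetic mice had both the high-fat diet and STZ, so diet, STZ, and high blood glucose cannot be told apart. Each group has 3 or 4 mice, and no exact test between control groups can go below 0.1. Urothelial level, WT control mouse 2, and transcript length moved with several values of the 10 genes.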
